A study of Homo sapiens with 24 samples.

Results

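The introns described here are those that stayed spliced in cells carrying wild-type (WT) PHF5A while the splicing inhibitor E7107 was present. An intron entered the set when it spanned 60 bases or more, had reads at both of its splice sites in all 24 samples, was spliced at a mean of 90% or more at both ends in WT cells given DMSO and in WT cells given E7107, and had a mean of 2% or less of unspliced reads at each of its ends in WT E7107. Of 187450 introns with reads at both sites in all samples, 72469 were spliced at 90% or more in WT DMSO (called spliced introns below), and 14128 of these (19.5%) met every limit. The 14128 introns lay in 3353 of the 9501 genes that hold a spliced intron. The members were thus selected on the WT boundary and spliced values themselves, all WT values below are therefore given as a description with no test. Tests are given only for the Y36C cells, whose PSI values took no part in the choice and whose samples entered it only through the requirement of reads at both sites.

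The measurement was RNA-seq of poly(A) RNA from HCT116, a colorectal carcinoma cell line, made to overexpress either WT PHF5A or PHF5A with tyrosine 36 changed to cysteine (Y36C) from a lentivirus in the drug-selected population, with the cells' own PHF5A gene still present. Each line was given the solvent DMSO or E7107 for 6 h, which makes 4 groups of 6 samples named by line and treatment, such as Y36C E7107. The labels do not give the E7107 dose, and the study's methods name a lower and a higher one without saying which of them these files hold. The study's results describe RNA-seq of both lines at the lower dose. A Y36C response below is still that at a dose which the labels leave unknown. The study's methods give the treatment as done in hexaplicate before lysis. Nothing in the labels or in that wording shows that the 6 samples of a group came from separately grown cultures. The p-values therefore measure only the spread between these samples, which may be technical. The values are PSI (percent spliced in), the percentage of the reads at a splice site that use one route. A boundary PSI is the share of reads that run unspliced from exon into intron at one end, and a spliced PSI is the share that join that intron's own ends.

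Removal of an intron starts with the pairing of U1 small nuclear RNA with its 5′ splice site and of U2 with the branch point upstream of its 3′ splice site. U2 is held there by the SF3b complex, of which SF3B1 and PHF5A are subunits that together form the pocket around the branch point adenosine. E7107, a pladienolide derivative, occupies that pocket and blocks the stable binding of U2. A smaller class of introns uses U11 and U12 in place of U1 and U2, and SF3b is part of that machinery too.

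The ends of a few introns named below are printed here to show the members beside neighbours of the same gene, and no result rests on these letters. Each 50-base stretch is the last part of an intron on the transcribed strand (GRCh37), with the terminal AG in capitals together with any match to CTNAC, a short branch point motif searched on the transcribed strand 15 to 50 bases before the exon. A match is a description of the letters and not a mapped branch point. The motif was present in 20.5% of the members, in 20.2% of all spliced introns and in 20.7% of the introns that were retained at 20% or more at both ends in WT E7107. The first 6 lines are 3 members each followed by the upstream neighbour that shares an exon with it and had many more boundary reads in WT E7107. The next 4 are members whose splicing changed in Y36C cells under E7107.
TUBA1C intron 3, last 50 bases, chr12:49665986-49666035, plus strand: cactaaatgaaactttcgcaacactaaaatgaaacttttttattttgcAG
TUBA1C intron 2, last 50 bases, chr12:49663561-49663610, plus strand: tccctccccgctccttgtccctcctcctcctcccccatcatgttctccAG
GPALPP1 intron 2, last 50 bases, chr13:45580287-45580336, plus strand: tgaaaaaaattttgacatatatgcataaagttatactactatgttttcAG
GPALPP1 intron 1, last 50 bases, chr13:45578390-45578439, plus strand: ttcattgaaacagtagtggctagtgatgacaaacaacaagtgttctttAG
CNOT10 intron 2, last 50 bases, chr3:32746253-32746302, plus strand: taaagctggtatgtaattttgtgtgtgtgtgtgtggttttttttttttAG
CNOT10 intron 1, last 50 bases, chr3:32745310-32745359, plus strand: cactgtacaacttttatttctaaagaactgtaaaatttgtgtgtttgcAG
ENTPD5 intron 8, last 50 bases, chr14:74443116-74443165, minus strand: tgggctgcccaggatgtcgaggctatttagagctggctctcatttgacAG
MYO19 intron 8, last 50 bases, chr17:34870392-34870441, minus strand: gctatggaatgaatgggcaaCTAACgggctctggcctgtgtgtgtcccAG
VRK2 intron 10, last 50 bases, chr2:58366751-58366800, plus strand: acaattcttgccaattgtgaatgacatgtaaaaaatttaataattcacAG
TOM1L2 intron 8, last 50 bases, chr17:17770239-17770288, minus strand: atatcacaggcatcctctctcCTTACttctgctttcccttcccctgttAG
In the member introns of TUBA1C, GPALPP1 and CNOT10 pyrimidines made up 52%, 48% and 58% of these 50 bases, against 86%, 44% and 54% in their neighbours, so the member did not have the higher share of pyrimidines in every pair. Of these 10 introns, intron 8 of MYO19 and intron 8 of TOM1L2 held a CTNAC match in the searched window.

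Over the 14128 introns the mean boundary PSI, averaged over both ends, was 0.973% ± 0.0552 in WT DMSO and 0.649% ± 0.0604 in WT E7107 (mean ± SD of samples, n = 6 each). WT DMSO replicate 1 stood apart from its group at 1.08%, and without it the mean was 0.952% ± 0.0162 (n = 5). The WT DMSO samples lay between 0.932% and 1.08% and the WT E7107 samples between 0.557% and 0.744%, so the groups did not overlap. The limit of 2% was set on WT E7107 and not on WT DMSO, and 2998 members (21.2%) had a WT DMSO mean above 2% at an end, so this direction is bound up with the choice. In the Y36C cells, whose PSI values the rule did not use, the mean went from 0.858% ± 0.0393 in DMSO (0.792% to 0.897%) to 1.49% ± 0.0545 in E7107 (1.42% to 1.55%). That is 1.73 times the DMSO level, or 0.628 percentage points, and again no sample of one group overlapped the other. Over all 72469 spliced introns the mean went from 1.51% with DMSO to 13.6% with E7107 in WT and from 1.41% to 2.63% in Y36C, where the ratio was 1.87. Spliced PSI of the members averaged 98.4% in DMSO and 98.8% in E7107 for WT, and 98.5% and 97.1% for Y36C. The drop in Y36C was 1.37 points for the members and 2.06 points for all spliced introns.

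**Figure D1:**
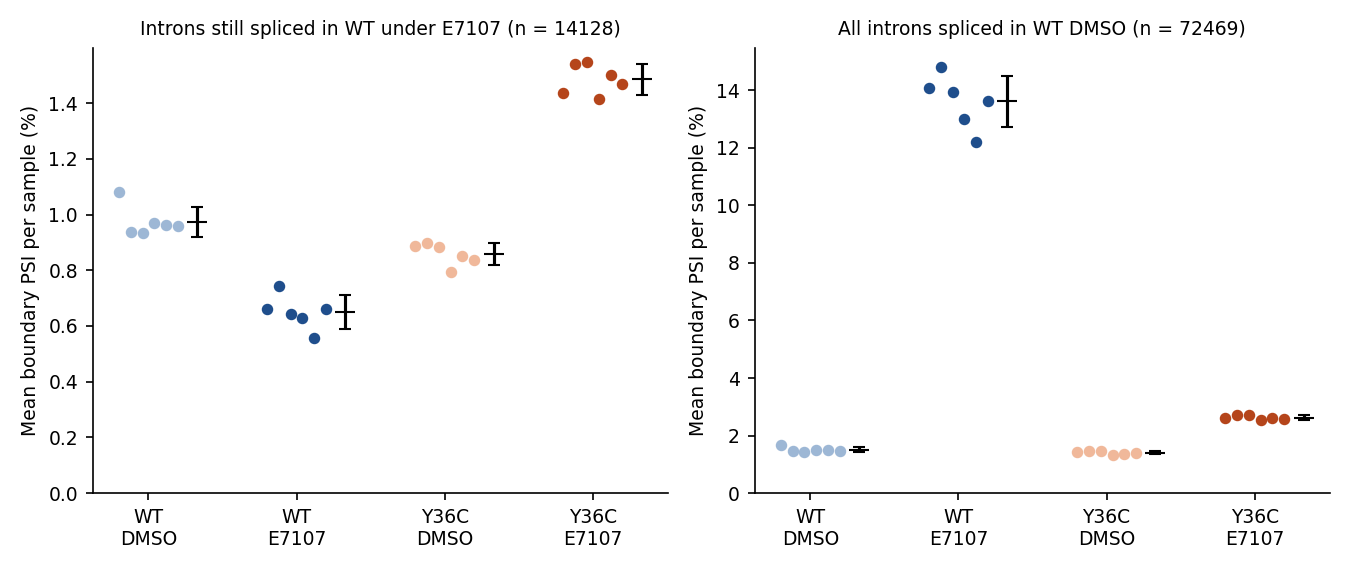
Mean boundary PSI in percent (mean of both ends) for each of the 24 samples, as points by group, over the introns still spliced in WT under E7107 and over all introns spliced in WT DMSO, with the group mean and SD. The members lay at 0.557% to 0.744% in WT E7107 and at 1.42% to 1.55% in Y36C E7107, while all spliced introns averaged 13.6% and 2.63%.

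Most members had few boundary reads anywhere. The median over members of the group mean was 0.472% at the 5′ end and 0.587% at the 3′ end in WT DMSO and 0.521% and 0.570% in WT E7107. For the Y36C line these medians were 0.323% and 0.444% with DMSO and 0.537% and 0.670% with E7107. In WT E7107 30.3% of members were at 0 in all 6 samples at the 5′ end. More than 10% of boundary reads occurred at 18 members (5′ end) and 34 (3′ end) in Y36C DMSO and at 226 and 295 in Y36C E7107. In WT E7107 the 5′ boundary was the higher in 5244 members, the 3′ boundary was the higher in 6014, and they were equal in 2870. At the edge of the limit, intron 5 of HLCS and intron 2 of SWI5 were just inside, with a mean of 2% at an end that came from samples of up to 12%, and intron 4 of TDP2, intron 8 of PACS1 and intron 14 of ESYT1 were just outside, with means of 2.00% after rounding.

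The splice sites with reads numbered 337517 to 340081 per WT DMSO sample and 281164 to 283548 per WT E7107 sample, and for Y36C 336249 to 338547 with DMSO and 328458 to 331604 with E7107. Of 84437 introns spliced in WT DMSO with reads in the other 18 samples, 8661 (10.3%) lacked reads at a site in one or more WT E7107 samples and so could not be members, and whether they were retained cannot be told. A further 2951 of 40036 introns (7.37%) that were spliced in both WT groups had no boundary value listed at an end, because the table lists a boundary only where it had reads in some sample, and they too are outside the set. Of the epithelial markers EPCAM, CDH1, KRT8 and KRT18 had introns with reads in all samples. Members were 6 of 8 EPCAM and 8 of 15 CDH1 introns, but none of 7 KRT8 and none of 6 KRT18 introns. No introns with reads in all samples were found for CDX1, VIL1 and LGALS4, nor for the leukocyte markers PTPRC, CD3E and CD79A or COL1A2 and PECAM1. COL1A1 had 37 introns with reads in all samples, none of them a member. In poly(A) RNA taken at a single time, mRNA spliced before E7107 was added and mRNA spliced in its presence cannot be told apart.

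Members were gathered by gene. Among 2587 genes with 10 or more spliced introns, 1347 (52.1%) held no member and 39 consisted of members only. The 441 genes with more than 50% members held 63.8% of the 8732 members in these genes. Of the 1240 genes with a member, 118 also held a retained intron. How many of all 2587 genes held a retained intron was not counted, so this share has no background. On the log-odds scale, differences between genes made up 78.5% of the variance of boundary PSI in WT E7107 among these 44169 introns. Examples of genes whose introns were all members, picked after their values were seen, were as follows. MTHFD1, an enzyme of one-carbon folate metabolism, had 27 of 27, IARS2, the mitochondrial isoleucyl-tRNA synthetase, 22 of 22, IDE, the insulin-degrading protease, 18 of 18, and LTA4H, which makes leukotriene B4, and the annexin ANXA6 16 of 16 each. Further such genes were PCCB, a subunit of propionyl-CoA carboxylase, with 14, and PHGDH, which opens serine synthesis, and ASNS, asparagine synthetase, with 11 each. The chaperonin gene CCT3 (13 of 13) and the glycolytic PGK1 (10 of 10) have near-identical processed copies in the genome, so their reads are less certain.

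The most members in a single gene were the 71 of 83 spliced introns of PRKDC, the catalytic subunit of the kinase that acts in DNA end joining. HUWE1, a large ubiquitin ligase, had 48 of 80, DYNC1H1, the heavy chain of cytoplasmic dynein, 44 of 77, HSPG2, which encodes perlecan, 42 of 75, and UBR4, another ubiquitin ligase, 42 of 101. None of these 5 genes held a retained intron. The introns of HUWE1 fell into 2 stretches, with a split chosen after the values were seen. In introns 1 to 60, 48 of 57 were members and the median boundary PSI in WT E7107 was 0.926%, whereas in introns 61 to 84 none of 23 was a member and the median was 2.96%. The later stretch also had the higher median in WT DMSO, 1.11% against 0.223%, and in Y36C E7107, 0.931% against 0.244%. PRKDC ran the other way in WT E7107. Its introns 1 to 30 had a median of 1.27% (21 of 30 members) and introns 31 to 86 one of 0.330% (50 of 53 members), while the WT DMSO medians were 0.336% and 0.342%.

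**Figure D2:**
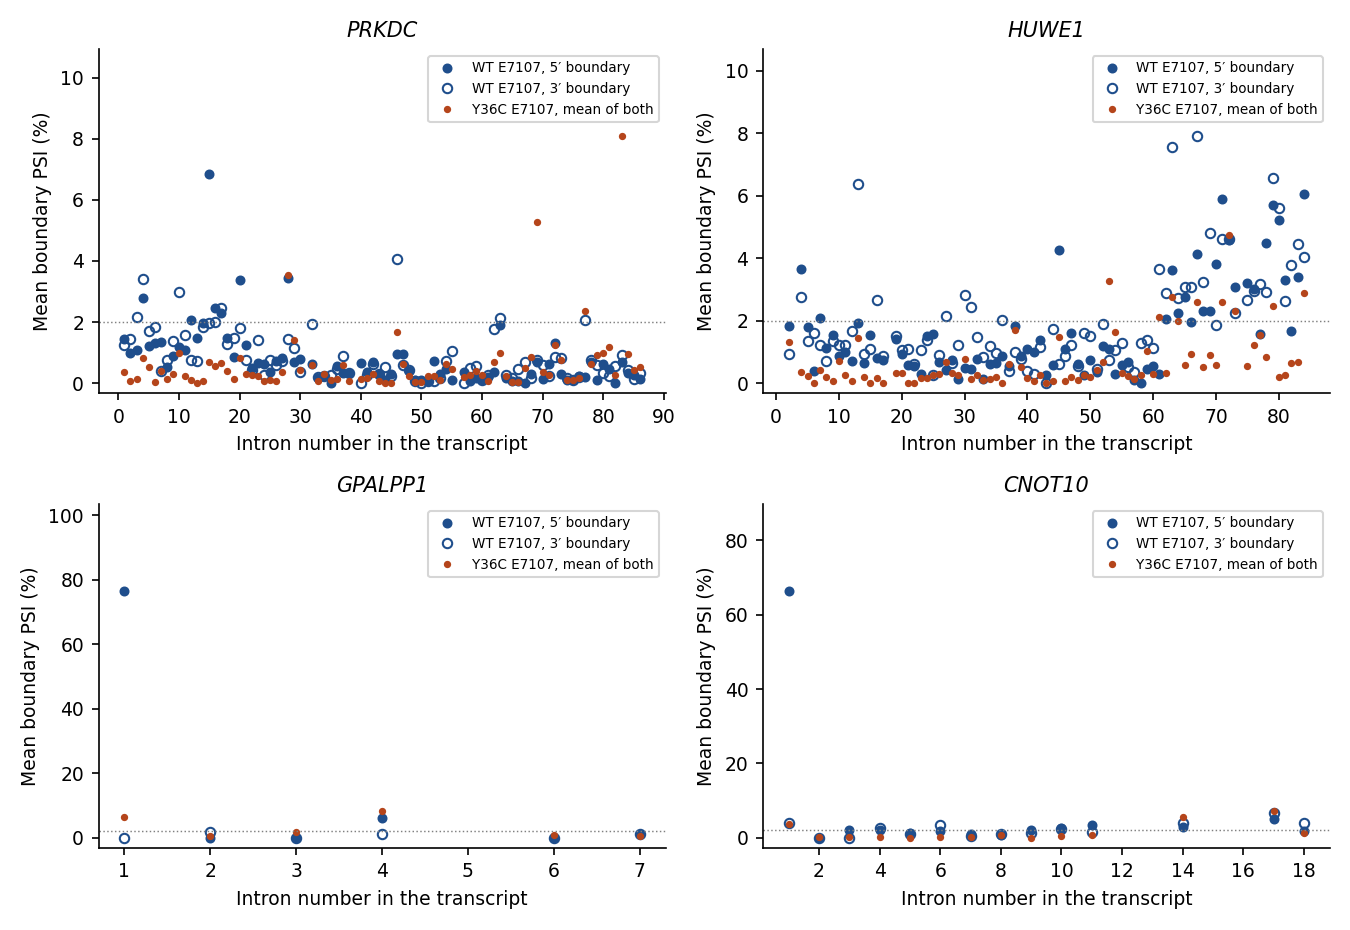
Mean boundary PSI in percent of each spliced intron by its number in the transcript, for PRKDC, HUWE1, GPALPP1 and CNOT10, with the 5′ boundary (filled) and the 3′ boundary (open) in WT E7107, the mean of both in Y36C E7107 (small points) and the limit of 2% (dotted line). In GPALPP1 and CNOT10 the 5′ boundary of intron 1 stands far above every other point, whereas PRKDC and HUWE1 stay within a few percent throughout.

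By function, the share of spliced introns that were members ran from 69.2% to 0. The glycolysis enzymes had the highest share, 128 of 185 introns, with 20 of 21 in PFKP and 17 of 19 in PFKL, phosphofructokinase subunits, 16 of 17 in GPI, glucose-6-phosphate isomerase, and 6 of 7 in LDHB, a lactate dehydrogenase subunit. The list was not uniform. HK2, a hexokinase, had none of 16 and held all 13 retained introns of the list, GAPDH, glyceraldehyde-3-phosphate dehydrogenase, had none of 8, the phosphoglycerate mutase PGAM1 none of 3, and LDHA, the other lactate dehydrogenase subunit, 2 of 7. The respiratory chain and ATP synthase subunits outside complex I had 101 of 168 (60.1%), including 11 of 11 in ATP5F1A, the alpha subunit of ATP synthase. The complex I list had 68 of 162 (42.0%), with 14 of 16 in its core subunit NDUFS1. It also takes in the assembly factors NDUFAF1 to NDUFAF8, which are not subunits and had 1 member among 28 introns and 8 retained ones, while the subunits had 67 of 134 and 1 retained intron. The aminoacyl-tRNA synthetases, which charge tRNAs, had 140 of 352 (39.8%), with 15 of 16 in FARSB and 21 of 31 in EPRS1. All these stood above the 19.5% of all spliced introns, as did the actin and tubulin cytoskeleton (51 of 146, 34.9%), the proteasome (90 of 299, 30.1%) and the chaperones (52 of 212, 24.5%). The cytoskeleton, proteasome and chaperone lists were not uniform either. The actin genes ACTB and ACTG1 had none of 5 each and the tubulin genes at most 1 each, against 8 of 8 in CAPZB. The proteasome genes PSMC1 to PSMC6 had none, against 10 of 11 in PSMD3. Among the chaperones HSPA4 had 14 of 18, CCT3 13 of 13 and CCT4 12 of 13, while HSPA8 had none of 8 and 7 retained.

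Close to that level were the mitochondrial ribosomal proteins (52 of 273, 19%) and the translation factors (99 of 553, 17.9%). Of the latter, 21 came from EIF2AK4, 10 from EIF2AK2 and 9 from EIF2AK1, stress kinases that are not themselves translation factors. The share in the other genes of that list was lower. The cytosolic ribosomal proteins had 51 of 338 (15.1%), and only 0.592% of their introns were retained at 20% or more, so most of them lay between the limits. Their 49.4% at a limit of 5% was above the 37.4% of all spliced introns, and their 3.55% at a limit of 1% was below the 10.7%, so the place of this list depends on the limit. Many of these genes have processed copies in the genome, and their reads are less certain for that reason. Lower shares were found for hnRNP genes (15 of 177, 8.47%) and for core spliceosome genes (41 of 531, 7.72%, with 8 of 27 in EFTUD2, a U5 component). The 41 include 3 introns of PHF5A, whose reads may come from its transgene. The mitosis and cell cycle list had 46 of 734 (6.27%), of which 8 were in KIF13A and 7 in KIF21A, kinesins known for cargo transport and microtubule control rather than for the spindle. The ZNF genes had 11 of 437 (2.52%), 6 of them in ZNF185, an actin-binding LIM protein that is no transcription factor, and 50.1% of the ZNF introns were retained. None of the 61 spliced introns of short-lived early response mRNAs was a member, and 91.8% of them were retained. The order of these lists is a count over introns of the same few genes and was not tested.

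**Figure D3:**
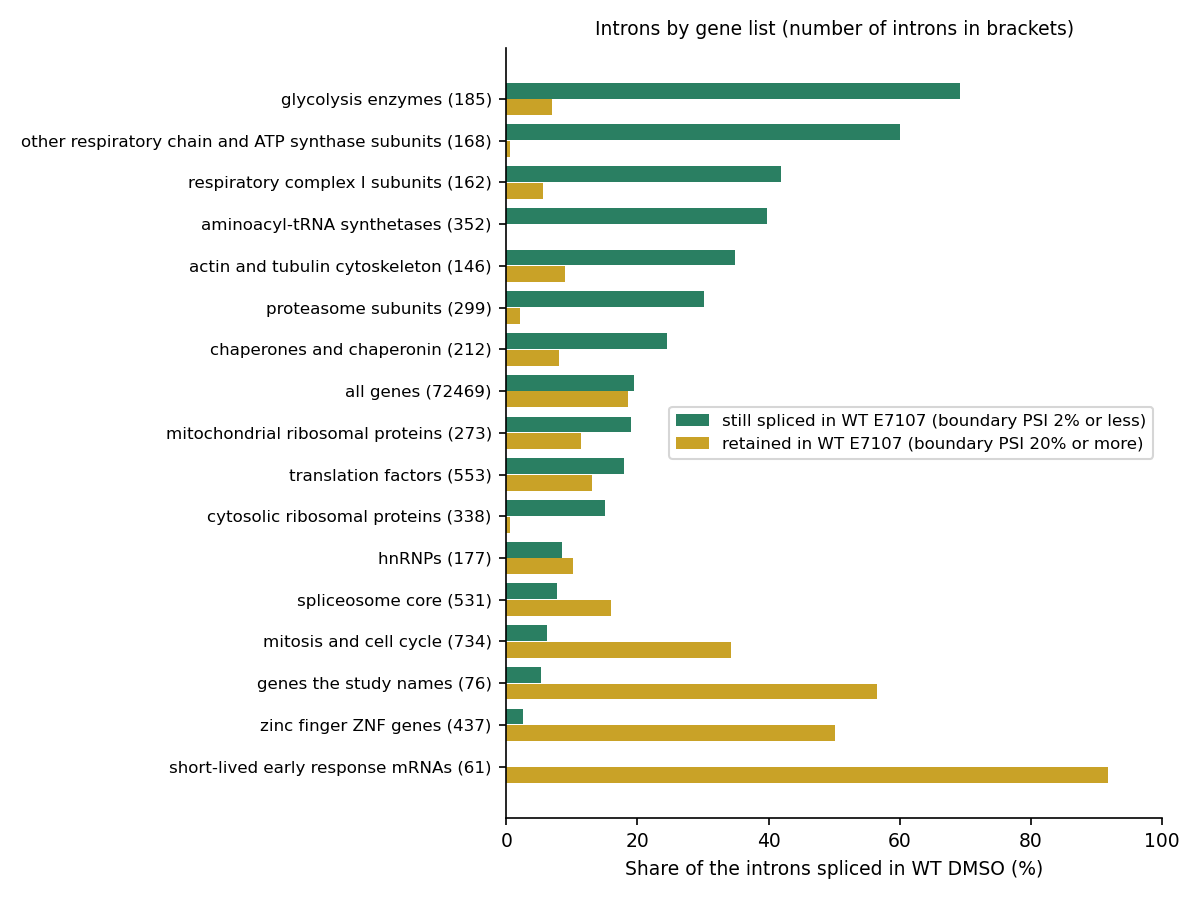
Share in percent of the introns spliced in WT DMSO that were still spliced (boundary PSI of 2% or less at both ends, green) or retained (20% or more at both ends, yellow) in WT E7107, by gene list, with the number of introns in brackets. Glycolysis enzymes had 69.2% still spliced and 7.03% retained, and the early response mRNAs 0 and 91.8%.

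All 14128 members were introns of annotated transcripts, 13920 (98.5%) lay between coding exons, 14106 belonged to protein-coding genes and 16 to long noncoding RNA genes. A further 564 of them overlap more than 1 annotated gene, and reads of the overlapping genes cannot be told apart there. Their median length was 1747.5 bases, against 1379 for all spliced introns and 943 for the retained ones. The share of members was 13.8% among introns of 100 bases or less and reached 23.8% above 30000 bases, while the retained share fell from 25.1% to 3.61% over the same classes. Median GC content was 42.8% for members, 42.9% for all spliced introns and 44.4% for retained ones. The share of members was highest in the middle classes, 21.8% and 21.9% between 40% and 50% GC, and lowest above 60% GC (14.3%) and below 35% (17.7%). The retained share was 19.2% below 35% GC, lowest between 35% and 40% (15.7%) and highest above 60% (23.5%). Splice site scores, log-odds against equal frequencies of all bases in bits, had medians of 8.37 for members, 8.33 for all and 8.33 for retained introns at the 5′ site and 9.91, 9.69 and 9.42 at the 3′ site. The median pyrimidine share before the 3′ site was 76.5% in each set.

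The share of members was lowest for intron 1. In transcripts of 6 or more introns, 11.9% of introns 1 were members, 17.6% of introns 2, 18.2% of introns 3 and 19.8% of introns 6, whereas the retained share was 16.6% for introns 1 and 20.1% for introns 6. In transcripts of 10 or more introns the first 20% of introns held 14.9% members and the last 20% held 20.8%. Introns of a gene share their RNA, so these shares are given with no test.

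**Figure D4:**
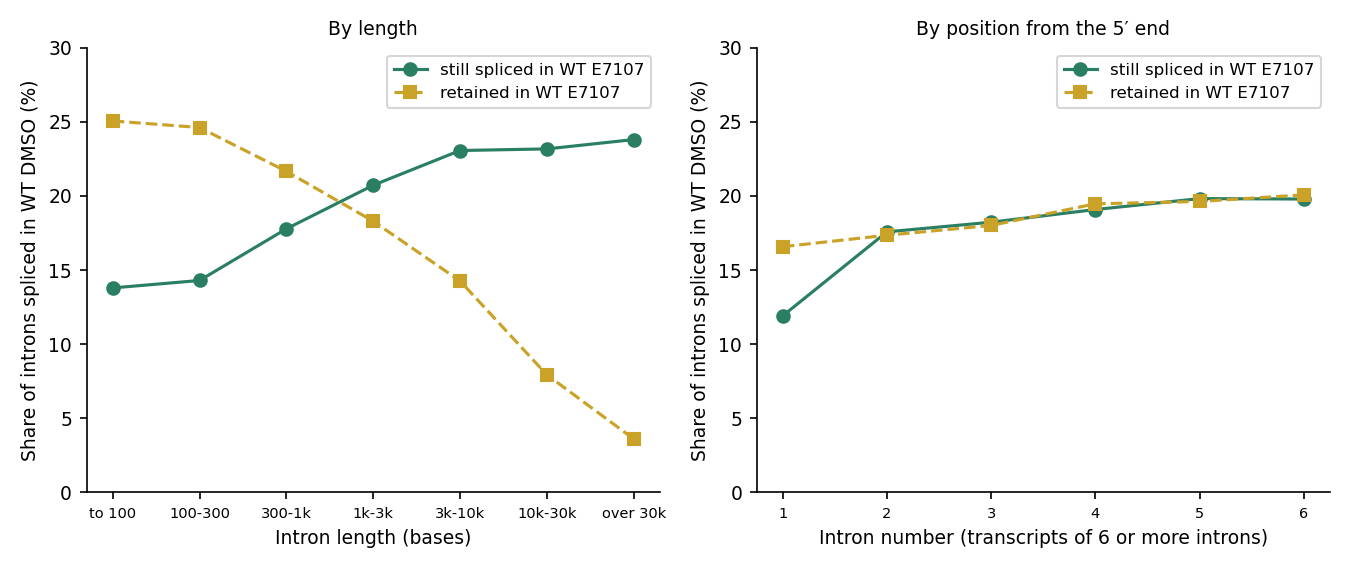
Share in percent of introns spliced in WT DMSO that were still spliced (2% or less) or retained (20% or more) in WT E7107, by intron length class in bases and by intron number in the transcript. The still spliced share was 13.8% in the shortest class and 23.8% in the longest, and 11.9% for intron 1 against 19.8% for intron 6.

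The introns next to a member were usually low as well. Of 10741 upstream neighbours that were themselves spliced introns, 66.1% were members, the median boundary PSI in WT E7107 was 0.950%, and 3 were retained. Of 10530 downstream neighbours, 67.3% were members, the median was 0.938% and 2 were retained. A neighbour with a mean of 10% or more occurred upstream of 139 members (1.29%) and downstream of 69 (0.655%). Many of those upstream neighbours were first introns (60 of 139) and their reads were uneven: the 5′ boundary exceeded the 3′ boundary in 123 of 139, with medians of 25.1% and 2.31%. The 69 downstream neighbours had medians of 15.3% and 10.8%. Where a member was intron 2, the first intron reached 10% in 60 of 785 cases (7.64%) and intron 3 in 2 of 635 (0.315%).

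The 10 widest gaps between a member and its neighbour showed the same unevenness in 9 cases, in ATG2B, VPS13C, GPALPP1, SGMS1, CNOT10, GID4, ARHGEF12, RAB28 and BTBD9. In CNOT10, a subunit of the CCR4-NOT deadenylase, the 5′ boundary of intron 1 was 63.4%, 65.3% and 71.6% (lowest, median and highest of the 6 WT E7107 samples), its 3′ boundary 0, 3.57% and 11.1%, and member intron 2 was at 0 at both ends in all 6. In GPALPP1 the 5′ boundary of intron 1 was 63.6%, 78.4% and 83.1%, and its 3′ boundary was 0 in all 6. In both genes the 3′ boundary of intron 1 was below its 5′ boundary in every WT E7107 sample. In Y36C E7107 the 5′ boundary was 1.47% to 4.69% in CNOT10 and 2.94% to 6.45% in GPALPP1, and neither passed the test against Y36C DMSO. ARHGEF12 had 65.1%, 68.6% and 76.6% at the 5′ end of its intron 1 in WT E7107, and 0, 2.63% and 6.38% at the 3′ end.

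TUBA1C, an alpha-tubulin gene whose near-identical relatives make its reads uncertain, was the exception. Its intron 2, of 140 bases and printed above, had boundary reads at both ends in WT E7107, 49.4%, 50.8% and 53.6% at the 5′ end and 46.6%, 47.1% and 50.9% at the 3′ end. Its intron 3, across a single exon, had 0.722%, 0.895% and 1.04% at the 5′ end and 1.13%, 1.42% and 1.71% at the 3′ end. In Y36C cells intron 2 rose from 0.565% to 1.15% in DMSO to 2.53% to 3.65% in E7107 at its 5′ end (limma, adjusted p = 1.26e-04), and intron 3 moved by 0.158 points (adjusted p = 0.50).

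Over all spliced introns, 293 had 20% or more at the 5′ boundary and 2% or less at the 3′ boundary in WT E7107, and 89 had the reverse. Of the former, 110 (37.5%) were first introns, against 7.16% of the introns retained at both ends. Their median length was 8132 bases, against 943 for the introns retained at both ends. Of the 191 with a spliced intron downstream, 61 stood next to a member, compared with 3 of 9267 introns retained at both ends.

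In Y36C cells the boundary reads of some members rose under E7107. Of the 28256 boundary rows of the members, 25093 could be tested, and 891 (3.55%) rose and 29 (0.116%) fell in Y36C E7107 against Y36C DMSO (limma on the log odds of PSI, Benjamini-Hochberg adjusted p of 0.05 or less over all rows). Among all boundary rows 8.76% rose and 0.351% fell, and among those of all spliced introns 8.04% rose and 0.15% fell, so the members' share lay below the background. With 0.1 points added to PSI before the log odds in place of 1, 538 rose. Members had fewer boundary reads than other introns from the start, and the part of that in the lower share was not tested. At a mean boundary PSI of 0.858% in Y36C DMSO the members also had little room to fall. The rises were found at 704 members (4.98%), at both ends in 187, at the 5′ end alone in 257 and at the 3′ end alone in 260. The median rise of those called was 3.59 points, and 91 rose by 10 points or more. Over all tested rows the median change was 0.218 points in members and 0.424 in all spliced introns.

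The widest rise was at the 3′ boundary of intron 8 of ENTPD5, a nucleoside diphosphatase of the endoplasmic reticulum. It was 0, 2.0% and 8% (lowest, median and highest) in Y36C DMSO and 25%, 45% and 58.3% in Y36C E7107, a rise of 41.7 points (log odds 3.41 ± 0.47 SE, adjusted p = 0.000687). In all 6 WT E7107 samples it was 0, where the rule for members required a mean of 2% or less. Its 5′ boundary, at 0, 14.3% and 40% in Y36C E7107, did not pass (adjusted p = 0.547). The ENTPD5 groups did not overlap at the 3′ end and overlapped at the 5′ end. Intron 8 of MYO19, a myosin of mitochondria, rose at both ends. Its 3′ boundary went from 5.71%, 6.28% and 7.34% in Y36C DMSO to 30.8%, 34.6% and 39.7% in Y36C E7107, by 28.5 points (log odds 1.94 ± 0.09 SE, adjusted p = 7.36e-07). Its 5′ boundary went from 2.12%, 4.78% and 6.98% to 22.4%, 26.5% and 35.4% (adjusted p = 3.88e-05). In WT the same 3′ boundary was 4.85%, 7.61% and 9.76% in DMSO and 0, 1.40% and 5.88% in E7107, and the low WT E7107 values are those that made this intron a member.

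SCMH1, FNIP1 and VWA8 completed the 5 widest rises. Intron 11 of SCMH1, a Polycomb group protein, rose by 28.4 points at the 3′ boundary (0, 2.95% and 23.5% to 25%, 36.9% and 48.1%, adjusted p = 0.014), and the call was lost when 0.1 points were added to PSI before the log odds in place of 1 (adjusted p = 0.0622). Intron 5 of FNIP1, a partner of folliculin, rose by 25.6 points at the 5′ boundary (0, 0 and 9.52% to 11.1%, 24.8% and 44.4%, adjusted p = 0.00206). Intron 31 of VWA8, a mitochondrial ATPase, rose by 25.6 points at the 3′ boundary (11.1%, 18.3% and 26.9% to 28.6%, 44.4% and 65.0%, adjusted p = 0.0156), and this call was lost when all 24 samples were fitted together (adjusted p = 0.0990). At the other end of these introns SCMH1 rose at its 5′ boundary (0, 4.70% and 10.8% to 21.7%, 27.7% and 33.3%, adjusted p = 0.00599), the 3′ boundary of FNIP1 was not called (adjusted p = 0.404), and the 5′ boundary of VWA8 was 0 in all 12 Y36C samples. At the boundaries that rose most, all groups kept apart between Y36C DMSO and Y36C E7107 in every sample. In WT the SCMH1 3′ boundary lay at 3.57% to 13.2% in DMSO and at 0 to 10% in E7107. The VWA8 3′ boundary lay at 0 to 14.8% in WT DMSO and at 0 to 8.33% in WT E7107. The FNIP1 5′ boundary lay at 0 to 20% in WT DMSO and at 0 in WT E7107. The low WT E7107 values are those that made these introns members.

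The 29 boundary rows that fell included intron 6 of STAMBPL1, a deubiquitinase (-8.87 points, adjusted p = 0.014), intron 14 of FYCO1, an autophagosome adaptor (-8.12 points, adjusted p = 0.01), intron 3 of DIS3L, an exosome nuclease (-6.07 points, adjusted p = 0.0495), and intron 19 of PHKA1, a phosphorylase kinase subunit (-5.79 points, adjusted p = 0.0221). Each of these falls was at a single end, and all of them lost their call when PSI itself was fitted (adjusted p = 0.0513, 0.0593, 0.152 and 0.0584).

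In Y36C E7107 more members were called for a loss of their own splice than for a gain of boundary reads. Of 26755 tested spliced rows, 2358 (8.81%) fell and 49 (0.183%) rose, against 13.3% and 0.201% for all spliced introns and 5.5% and 3.1% for all spliced rows of the table. With 0.1 points added in place of 1, 1468 fell. Spliced PSI of the members averaged 98.5% in Y36C DMSO, so these rows had little room to rise. A fall occurred at 2049 members (14.5%), of which 1411 had no boundary row called higher. Of the 58341 spliced introns that were not members, 5913 had a fall with no boundary called higher, a share close to that of the members. The median fall of the members' rows called was -5.0 points, and 493 of these rows fell by 10 points or more. At most of these members a longer junction from the same site, one that reaches past the intron, was called higher. Of the 2049 members, 1022 had a longer junction called higher and no boundary called higher, 457 a boundary and no longer junction, 181 both and 389 neither. This split was not counted for the other spliced introns.

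Other junctions at the members' sites moved almost only upward. Of 40083 tested, 1785 (4.45%) rose and 53 (0.132%) fell, with 1683 of the rises in longer junctions and 102 in shorter ones. At the sites of all spliced introns 5.21% of such junctions rose and 0.181% fell. Junctions that skip exactly 1 exon next to a member numbered 10935 tested, of which 1235 (11.3%) rose and 1 fell, with a median rise of 3.63 points and 184 rises of 10 points or more. At the sites of all spliced introns 13.6% of the junctions that skip 1 exon rose and 0.0459% fell, so the members' shares again lay below the background.

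The largest loss was at the 5′ site of intron 8 of TOM1L2, an adaptor of endosomal sorting. Its spliced PSI was 86.7%, 92.7% and 100% in Y36C DMSO and 16.7%, 46.4% and 69.2% in Y36C E7107, a change of -49.1 points (log odds -3.26 ± 0.58 SE, adjusted p = 0.00382). The junction that skips the next exon rose at the same site, from 0, 2.5% and 6.67% to 14.3%, 47.2% and 66.7% (adjusted p = 0.00408). Skipping was not the only change at TOM1L2 intron 8. Its mean boundary PSI over both ends was 5.06% in Y36C DMSO and 26.5% in Y36C E7107. In all 6 WT E7107 samples TOM1L2 intron 8 was at 100% spliced and the skipping junction at 0. At intron 2 of ZNF618, a zinc finger protein, spliced PSI at the 3′ site changed by -36.7 points (adjusted p = 0.0146) while the skipping junction rose from 0 in all 6 Y36C DMSO samples to 25%, 33% and 54.5% (adjusted p = 7.55e-07). That junction was at 0 in all 12 WT samples as well, where the rule leaves junctions that compete with a member little room.

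The other members with the largest losses differed in what replaced the splice. The 3′ site of intron 10 of VRK2, a kinase, went from 92.8%, 95.6% and 98.6% to 47.4%, 53.6% and 77.1% (adjusted p = 5.93e-05), while its boundaries reached a median of 11.8% and 10.3%. Intron 9 of TRMT2B, a mitochondrial tRNA methyltransferase, changed by -37.1 points at the 3′ site (adjusted p = 0.00348), and ENTPD5 intron 8 lost at that site the 41.7 points its boundary gained. Further skipping junctions with rises among the 5 widest were those of UBAC2 (32.8 points), IFT172, an intraflagellar transport protein (32.5 points), and ALDH4A1, an enzyme of proline breakdown (28.3 points). The IFT172 junction was at 0 in all 6 Y36C DMSO samples and at 14.3%, 35.4% and 55.6% in Y36C E7107, with up to 25% in a WT DMSO sample and up to 16.7% in a WT E7107 sample.

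**Figure D5:**
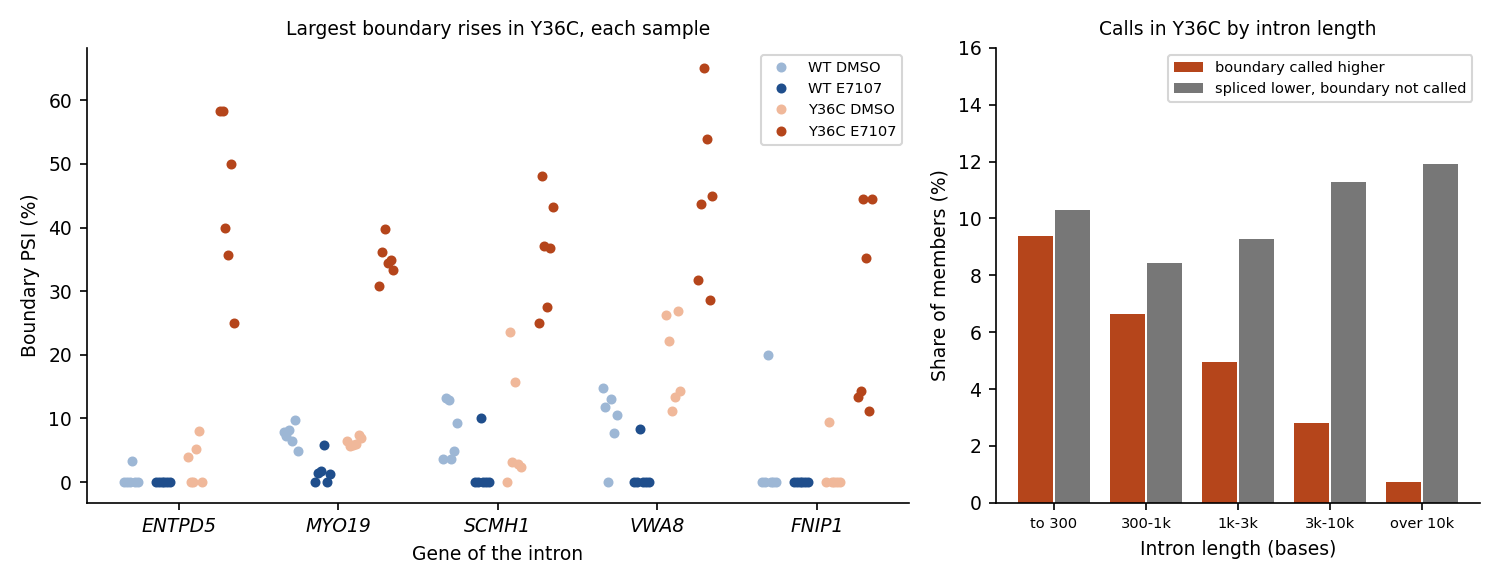
Left, boundary PSI in percent of each of the 24 samples at the 5 members with the widest called rises in Y36C, coloured by group. Right, the share in percent of members with a boundary called higher, or with only a spliced value called lower, in Y36C by intron length class in bases. MYO19 rose from 5.71% to 7.34% in DMSO to 30.8% to 39.7% in E7107, and the share of members with a boundary called higher was 9.40% at 300 bases or less and 0.736% above 10000 bases.

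The members that gained boundary reads and those that lost only their splice differed in form. The 704 with a boundary called higher had a median length of 882 bases and a median GC content of 49.4%, with 52% GC in their last 50 bases. The 1411 that lost the splice without a boundary rise had medians of 2024 bases, 42.3% and 36%, and the 12013 with neither had 1794 bases, 42.7% and 38%. The share with a boundary called higher was 9.40% at 300 bases or less, 6.63% to 1000 bases, 4.94% to 3000, 2.80% to 10000 and 0.736% beyond, and by GC it was 2.79% at 40% or less and 11.2% above 60%. In the spliced introns that were not members the medians were 494 bases and 52.6% GC with a boundary called higher and 1580 bases and 42.2% for those that lost only the splice. Exons before the members called in either way were shorter, with medians of 98 and 101 bases, than the 118 bases before members not called. The order was the same in the spliced introns that were not members, with medians of 116 and 111 bases against 129.

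By function, 34 of the 90 proteasome members (37.8%) lost splicing in Y36C E7107 and 14 (15.6%) gained boundary reads, beside 14.5% and 4.98% of all members. Of the glycolysis members 27 of 128 lost splicing and 18 gained boundary reads, and of the complex I members 18 and 9 of 68. The cytosolic ribosomal proteins had 15 of 51 with a loss, and the cytoskeleton list had 2 of 51 with a loss and 2 with a gain. No boundary rise was called among the 41 spliceosome, 15 hnRNP and 11 ZNF members. These are counts over introns that share genes, with no test of the lists.

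Members at the extremes of length are shown by their sequence and values. Short introns leave little room between the splice sites, and 2 of the 3 shortest members are printed whole, with the terminal GT and AG in capitals.
NDUFS7 intron 5, whole intron, chr19:1391050-1391117, plus strand: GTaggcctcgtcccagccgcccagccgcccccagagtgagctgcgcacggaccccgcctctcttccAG
FBXO2 intron 3, whole intron, chr1:11709932-11710001, minus strand: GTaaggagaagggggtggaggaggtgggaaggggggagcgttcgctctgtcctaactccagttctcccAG
Intron 5 of NDUFS7, a core subunit of complex I, is 73.5% GC. Its 5′ boundary was 0, 1.19% and 2.92% in WT E7107, where the rule for members required a mean of 2% or less. The 5′ boundary was 2.85%, 4.17% and 5.53% in Y36C DMSO and 7.83%, 10.2% and 13.0% in Y36C E7107 (a rise of 6.22 points, adjusted p = 0.00169). The 3′ boundary of this intron rose by 5.83 points (adjusted p = 0.00383). Intron 3 of FBXO2, an F-box protein that binds glycoproteins, was at 0, 1.46% and 2.96% at the 5′ end in Y36C E7107 and did not pass (adjusted p = 0.443). The Y36C groups kept apart at the NDUFS7 5′ end and overlapped at FBXO2. The 3 longest members were intron 1 of CMSS1 (328929 bases), intron 2 of MGMT, the alkylguanine repair enzyme (171517 bases), and intron 6 of ACYP2, an acylphosphatase (165939 bases). Their boundary means were at most 1.78% in Y36C E7107, and none was called.

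Introns of the U12 class held a somewhat smaller share of members. A 5′ end of GTATCCT or ATATCCT, the U12-type 5′ splice site, was found in 331 spliced introns, of which 50 (15.1%) were members and 54 (16.3%) were retained, beside 19.5% and 18.5% of all. Introns with AT-AC ends had 10 members of 89, and those with GC-AG ends 88 of 490. The first 20 bases of 5 such members are printed with the matching 7 bases in capitals.
MYCBP intron 3, first 20 bases, chr1:39333214-39333233, minus strand: GTATCCTttcaagtcagaaa
WLS intron 8, first 20 bases, chr1:68613799-68613818, minus strand: GTATCCTtccttgatgggct
CAPN2 intron 16, first 20 bases, chr1:223954134-223954153, plus strand: GTATCCTttaatgtgctcca
PARP1 intron 22, first 20 bases, chr1:226549650-226549669, minus strand: GTATCCTttcttgagtatgc
SMYD3 intron 9, first 20 bases, chr1:246027081-246027100, minus strand: GTATCCTttcgcctgtggat
Of these, intron 16 of CAPN2, a calpain protease, rose at its 5′ boundary from 0, 0.690% and 0.784% in Y36C DMSO to 1.57%, 2.31% and 3.94% in Y36C E7107 (adjusted p = 0.00274) and at its 3′ boundary by 2.10 points (adjusted p = 0.000981). Intron 22 of PARP1, the poly(ADP-ribose) polymerase of DNA repair, rose by 1.04 points at the 3′ boundary (adjusted p = 0.015), while MYCBP, WLS and SMYD3 had no row called. The 5 introns stayed within 0 to 3.33% in every WT E7107 sample, where the rule for members required a mean of 2% or less.

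Of the 8 genes the study names, 4 introns in 2 genes were members, out of 76 spliced introns of which 56.6% were retained. PHF5A contributed its introns 1, 2 and 3. Their boundary PSI in WT E7107 did not exceed 1.26% in any sample, but these cells carry a PHF5A transgene, which the study's methods give as a cDNA. The study puts the Y36C form at most of the PHF5A mRNA in the Y36C line. Reads that join exons of the transgene and of the endogenous gene cannot be told apart. Such a read may come from RNA that had no introns to remove. The low boundary PSI therefore does not show that these introns were spliced. Intron 1 of SF3B1, the subunit that PHF5A binds, was at 0, 0 and 0.660% at its 5′ boundary in WT DMSO and at 0.383%, 1.37% and 2.26% in WT E7107. In Y36C E7107 it was at 0, 0.239% and 0.510% (adjusted p = 0.602), so its groups in Y36C overlapped.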

How the data were processed

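The deposited files hold, for each of the 24 samples, PSI in percent for every splice junction and exon-intron boundary. Per the study's methods the authors mapped reads with STAR (genome hg19) and divided the reads of each junction by all reads that share its splice site. A site whose values sum to 0 was taken as having no reads. Read counts are not part of the files used here, so the depth behind a PSI value is unknown and no counting interval is given. Introns were placed on GENCODE annotation of GRCh37, the assembly behind hg19, from which sequences were also read. Splice site scores came from matrices counted over annotated introns.

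Of 1830076 rows per file, 6433 on the mitochondrial genome or without strand were left out. Y36C E7107 was tested against Y36C DMSO with limma 3.58.1 (R 4.3.3) on natural-log odds, adding 1 percentage point to PSI and to its complement, over the 832520 rows with reads in all 12 Y36C samples and values that were not identical, with Benjamini-Hochberg adjustment over those rows and a threshold of 0.05. limma and this threshold are those of the study, which fitted PSI itself. That fit is an alternative here. The script was tested on simulated data. Python 3.11.15, pandas 2.3.3, numpy 2.4.6 and pysam 0.24.0 did the rest. The WT cells were used to choose the members, and no E7107 contrast was tested in them.

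Named genes were taken by rule: the 10 genes with the widest gap between a member and a neighbour in WT E7107, the 5 widest called boundary rises and falls and the 5 widest called losses of splicing in Y36C, the 5 genes with most members, the 3 members just inside and the 3 introns just outside the limit, the 3 longest and shortest members, 5 members with a U12-type 5′ site, and members in the 8 genes the study names. A few items that the rule takes are not reported here. Examples within gene lists and the genes made of members only were picked after their values were seen. The members and the gene lists were chosen with earlier results of these data known.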

Additional observations from a re-analysis of the deposited data

Results flagged for a closer look

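WT DMSO replicate 1 stood apart from the other 5 by Dixon's test at the 95% level, with a mean boundary PSI of 1.08% over the members against 0.932% to 0.969% in the others, and a mean spliced PSI of 98.3%. Chance marks about 1 in 20 groups in this way, and the 4 groups were tested on each of 2 values, boundary and spliced PSI, which mirror each other, so that both marks are the same sample. The mean boundary PSI of the members moved in opposite directions in the 2 lines, by -0.324 points from DMSO to E7107 in WT and by 0.628 points in Y36C, in every sample. This difference was not tested, since the members were selected on low WT E7107 values.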

How the results depend on the processing

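The number of members depended on the limit: 7783 introns at 1%, 27111 at 5%, and 4297 when each of the 12 WT samples had to meet its limit, against 14128. With 0.1 points added in place of 1 the members had 538 boundary rises and 1468 losses of splicing, against 891 and 2358. With the replicate number as a block (replicate block) they had 515 boundary rises, 1516 losses and 1174 other junctions called higher, against 1785. Same-numbered samples had correlations of deviations from -0.00548 to 0.00244, and in 2 of 6 cases a sample correlated best with its own number, so the numbers did not pair the samples. Leaving out each Y36C sample in turn gave 750 to 857 boundary rises, 2061 to 2192 losses and 1546 to 1738 other junctions. The share of boundary rows called higher stayed below that of all spliced introns under every alternative fit, from 2.05% against 5.31% with the block to 20.7% against 30.2% where PSI had to be above 0 in all 6 samples of a group. Of 49 named rows called in Y36C, 37 of 293 alternative fits lost the call and none turned its direction. The depth behind each PSI value is unknown, so a PSI of 0 sets no upper limit. The choice of each alternative that leaves out a sample, and of those for the other junctions, was made after seeing the data.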
